A study of Rattus norvegicus with 18 samples.

Results

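The synaptic vesicle and its release machinery were followed here through 44 genes of rat hippocampal neurons, listed by gene symbol from the array's annotation by a rule that used no measured value, though with earlier results of these data known. By role they comprised 8 vesicle membrane proteins and synapsins, 2 vesicular glutamate transporters, 10 synaptotagmins, 4 SNARE proteins, 7 priming factors and SNARE regulators, 6 Rab3 proteins and effectors, 3 active zone scaffolds and 4 proteins of endocytosis. A gene was read out through a probe set, a group of short oligonucleotides summarised as 1 signal, and the brightest probe set stood for genes with several. Of the 44 genes, 43 had a probe set, and Erc2 was not analysed here. The filter on dim genes asked for a signal over the 40th percentile of its own array (154 to 164) on at least 3 of the 18 arrays, and 33 of the 44 passed it, among 10934 of all 14218 genes. The other 10 were Syn3, Sv2c, Syt2, Syt6, Syt12, Syt13, Unc13a, Unc13b, Rims2 and Rph3a. Closest to the filter were Pclo, over it on 4 arrays, and Rims1, over it on 16, while Syt12 was over it on 1 array and was left out.

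The series asked which activity-regulated genes MEF2 transcription factors control, with 18 Affymetrix arrays in 6 groups of 3. In the RNAi arm, neurons in dissociated culture received lentivirus with shRNAs against MEF2A and MEF2D on day 3, and in the control arm lentivirus with control shRNAs on the same day. On day 10 all groups, the 0 h ones included, were given AP5 (an NMDA receptor blocker) and TTX (a sodium channel blocker) for 1 h. KCl at 55 mM outside the cells, which depolarizes them, then followed for 0, 1 or 6 h. The groups were therefore RNAi at 0, 1 and 6 h and control at 0, 1 and 6 h. The rat strain and age and the promoter that drove the shRNAs are not given in the sources used here. GEO's labels call the arrays biological replicates without saying that they came from separate cultures, so p-values measure the spread between these samples, part of which may be technical.

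Neurotransmitter is packed into vesicles by transporters of the vesicle membrane, and synapsins hold a reserve of vesicles together. At the active zone, scaffolds, RIM and Munc13 proteins dock and prime vesicles, the SNARE proteins synaptobrevin, syntaxin and SNAP-25 draw the membranes together, and synaptotagmins start fusion when calcium enters. NSF and its SNAP adaptors then take SNARE complexes apart, and clathrin adaptors, dynamin and synaptojanin bring the membrane back.

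Promoter sequences came from the RefSeq table of rat assembly GRCr8, which held an entry for 35 of the 44 genes. An entry covers 250 bases before to 50 bases after a listed start of a gene, not always its outermost. The entries lacking were those of Syn3, Syngr1, Syt5, Syt7, Syt12, Syt13, Snap25, Rims2 and Snap91. Shown are Vamp1, a gene that was higher both with KCl and with RNAi, Syn1, which holds the same element but was called in no comparison, and Rab3c, which had the largest change with KCl. They lie at chr4:159698644-159698943 on the plus strand, chrX:3725495-3725794 on the plus strand and chr2:43575894-43576193 on the minus strand, the last inside the gene's span of 43353822 to 43577226. Each is printed 5′ to 3′ along its gene, and capitals mark TGACGTCA, the cyclic AMP response element (CRE).
Vamp1: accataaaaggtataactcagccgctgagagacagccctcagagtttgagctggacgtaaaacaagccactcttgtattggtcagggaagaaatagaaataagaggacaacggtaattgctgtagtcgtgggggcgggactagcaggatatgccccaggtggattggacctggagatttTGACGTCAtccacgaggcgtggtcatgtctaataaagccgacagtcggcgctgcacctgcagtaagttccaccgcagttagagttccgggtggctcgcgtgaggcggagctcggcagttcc
Syn1: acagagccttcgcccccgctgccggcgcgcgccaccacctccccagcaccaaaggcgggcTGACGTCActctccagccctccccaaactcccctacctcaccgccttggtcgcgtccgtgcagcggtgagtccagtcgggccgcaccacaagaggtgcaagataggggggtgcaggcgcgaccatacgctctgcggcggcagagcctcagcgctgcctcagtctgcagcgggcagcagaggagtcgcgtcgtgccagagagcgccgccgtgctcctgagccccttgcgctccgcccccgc
Rab3c: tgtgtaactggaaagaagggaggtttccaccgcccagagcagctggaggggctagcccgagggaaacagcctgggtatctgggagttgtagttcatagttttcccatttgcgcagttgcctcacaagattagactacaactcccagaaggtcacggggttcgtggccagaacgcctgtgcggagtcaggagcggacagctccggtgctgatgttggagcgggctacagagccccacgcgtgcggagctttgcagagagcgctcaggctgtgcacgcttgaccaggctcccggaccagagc
The CRE began at position -71 relative to the start of Vamp1 and at -190 relative to that of Syn1. It was found in 1.83% of all 33469 promoters of the table and in 2 of the 35. The AP-1 string TGANTCA was found in 7.33% of all promoters and in 2 of the 35, those of Syp and Erc2. The core of the MEF2 motif (CTA, any 4 bases, TAG) was found in 3.84% of all promoters and in 0 of the 35. Both strands were searched, and no CRE contains the AP-1 string. Absence of a string says only that these letters are not in this window.

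Array medians were 240 to 248, with correlations of 0.993 to 0.998 within groups. Mef2a averaged 604, 573 and 485 in RNAi neurons at 0, 1 and 6 h, against 1846, 2168 and 1756 in control neurons, and Mef2d 276, 312 and 369 in RNAi neurons against 397, 417 and 547 in control neurons. The log2 difference of Mef2a was -1.61, -1.92 and -1.86 and that of Mef2d -0.52, -0.42 and -0.57 at the 3 times, all called. Mef2c, which the shRNAs do not name, had -0.18, -0.38 and -0.30, none called, and a mean of -0.29, called. With KCl in control neurons, Fos rose by 4.30 and Arc by 3.02 at 1 h, and Bdnf by 3.42 at 6 h. All 16 neuron markers passed the filter, as did 10 of 11 astrocyte markers (Gjb6 was at the floor on all 18 arrays) and 8 of 11 markers of microglia and macrophages.

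Values under a signal of 72.6, the table's 20th percentile, were raised to that floor, and differences were tested on log2 signal with limma over all 10934 genes. Calls were made where the adjusted p (Benjamini-Hochberg) lay under 0.05, and each change below is a log2 difference ± its standard error. After 1 h of KCl no release gene was called in either arm, against 3.88% of all genes in the RNAi arm and 2.70% in the control arm. At an unadjusted p under 0.05 there were 0 release genes in the RNAi arm and 2 in the control arm, beside 1690 and 1288 of all 10934 genes. With the replicate number as a block 1 (Syt4) was called in the control arm, beside 5.5% of all genes. After 6 h, 5 release genes were higher and 2 lower of 33 in the RNAi arm, 21.2% against 40% of all genes. In the control arm 6 were higher and 4 lower, 30.3% against 41.6% of all genes. That count of 10 became 6 without control 6 h replicate 1 or without control 0 h replicate 2, beside 37.4% and 35.7% of all genes. The median change of the 33 was -0.01 in the RNAi arm and -0.02 in the control arm, beside -0.02 over all genes in each arm. Their median absolute change was 0.14 in each arm, beside 0.19 over all genes.

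**Figure D1:**
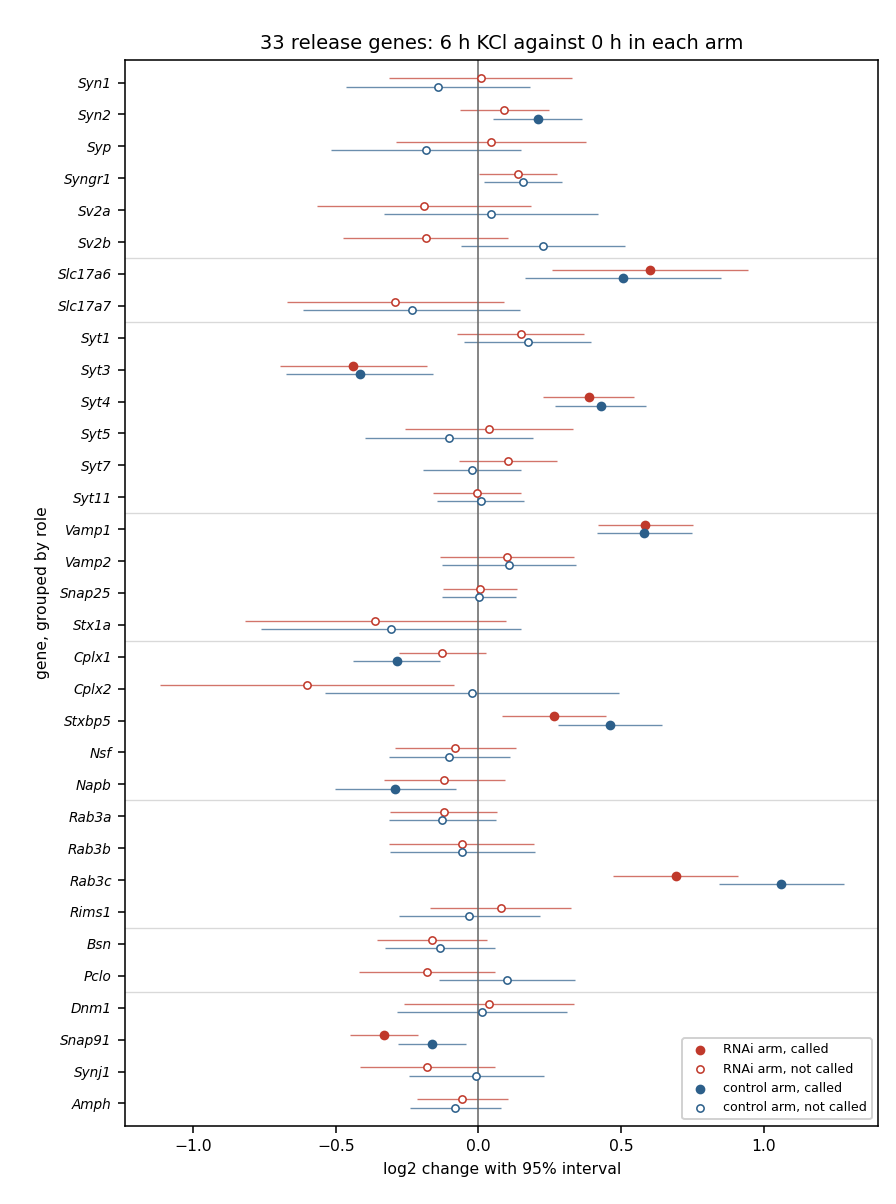
Log2 change of each of the 33 tested release genes after 6 h of KCl against 0 h, in the RNAi arm (red) and the control arm (blue), with 95% intervals, filled where called. Rab3c stands furthest right at 0.69 in the RNAi arm and 1.06 in the control arm, and all others but Slc17a6, Vamp1 and Cplx2 lie within 0.5 of 0.

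The 7 genes called in the RNAi arm were Rab3c, Slc17a6, Vamp1, Syt4, Stxbp5, Syt3 and Snap91. All 7 were called the same way in the control arm, where they made up 70% of the 10 calls. Over all genes, 79.0% of the calls in the RNAi arm and 76.1% of those in the control arm were called the same way in the other arm. The 3 further calls of the control arm were Syn2, Cplx1 and Napb. The only release gene past 2-fold was Rab3c in the control arm, beside 3.21% of all genes past 2-fold there.

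In RNAi neurons 3 release genes were higher and 5 lower than in control neurons at 0 h, 24.2% of 33 against 14.9% of all genes. At 1 h, 3 were higher and 3 lower, 18.2% against 17.1%. At 6 h, 4 were higher and 6 lower, 30.3% against 17.2%. The count of 8 at 0 h became 5 without RNAi 0 h replicate 1 or without control 0 h replicate 2, beside 13.3% and 10.3% of all genes. With the replicate number as a block the counts were 13 at 0 h, 13 at 1 h and 15 at 6 h, beside 26%, 28.1% and 28.2% of all genes. The KCl and RNAi comparisons share arrays (those at 0 h and at 6 h), so their calls for a gene are not independent of each other. The median difference of the 33 genes was -0.09, 0.00 and -0.11 at the 3 times, beside 0.02, 0.01 and 0.02 over all genes. Their median absolute difference was 0.16, 0.19 and 0.20, beside 0.12 over all genes at each time.

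Averaged over the 3 times, 5 release genes were higher and 11 lower in RNAi neurons, 48.5% against 37.6% of all genes. Syn2, Vamp1 and Cplx1 were higher and Stxbp5, Nsf and Snap91 lower at all 3 times, 6 of 33 (18.2%), beside 811 of 10934 genes (7.42%) called in 1 direction at every time.

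**Figure D2:**
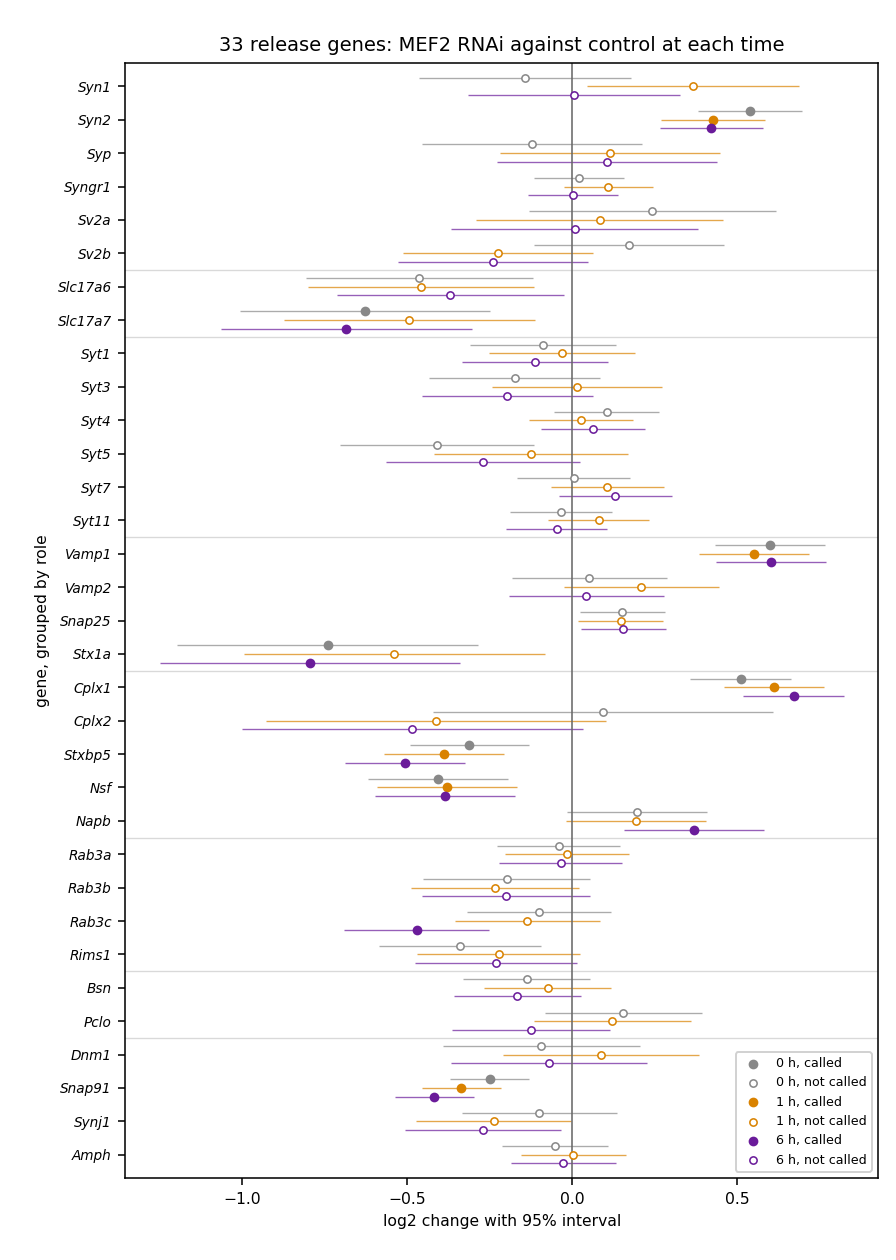
Log2 difference of RNAi minus control neurons for each of the 33 tested release genes at 0 h (grey), 1 h (orange) and 6 h (purple) of KCl, with 95% intervals, filled where called. Vamp1, Cplx1 and Syn2 lie between 0.42 and 0.67 at every time, and Stx1a and Slc17a7 lie between -0.79 and -0.49.

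In bulk RNA, fewer cells of a type and less RNA per cell cannot be told apart. Of 9 excitatory neuron markers 7 were tested. Their summed signal over the 8 with a probe set was 13234 to 15919 in RNAi neurons against 15967 to 19339.5 in control neurons at 0 h. At 1 h it was 11958 to 14492 in RNAi neurons, against 16894 to 18599 in control neurons. At 6 h the sums overlapped, at 11638 to 13889.9 in RNAi neurons and 12246 to 12818 in control neurons. With 6 h of KCl 2 of the 7 were called lower in the RNAi arm and 3 in the control arm, and none higher. These were 28.6% and 42.9%, beside 40% and 41.6% of all genes. Of the 7, 1, 3 and 1 were called lower with RNAi at 0, 1 and 6 h (14.3%, 42.9% and 14.3%, beside 14.9%, 17.1% and 17.2% of all genes) and none higher. Of 7 inhibitory neuron markers tested, 3, 1 and 3 were called lower at those times (42.9%, 14.3% and 42.9%). The inhibitory sums over the 10 with a probe set were 5054 to 5704 in RNAi neurons and 6519.9 to 7748 in control neurons at 0 h. At 6 h they were 6708 to 8367 in RNAi neurons and 8238 to 11075 in control neurons, above those at 0 h in each arm. Sst had the highest mean signal of the 10, 2198, and ranged from 800 to 4467 over the 18 arrays, so these linear sums depend much on it. With 6 h of KCl 3 of the 7 were called higher and 1 lower in each arm (57.1%, beside 40% and 41.6% of all genes). Of 7 endothelial and fibroblast markers tested, 2 were called lower with RNAi at each time (28.6%). Sums over the 10 with a probe set did not overlap at any time. They were 2385 to 2605 in RNAi cultures and 3466 to 4245 in control cultures at 0 h. At 1 h they were 2159 to 2544 in RNAi and 3461 to 4351 in control cultures, and at 6 h 2876 to 3374 and 3846 to 4201. Dcn was the largest term of these linear sums, with a mean signal of 1722 over the 18 arrays, and Col1a1 came next with 486. These sums therefore follow Dcn more than the other markers. The sums of the 16 general neuron markers overlapped at each time, and in the mean of the 3 times 2 of these markers were called higher and 6 lower with RNAi (50%, beside 37.6% of all genes). In that mean 5 of 7 excitatory (71.4%), 4 of 7 inhibitory (57.1%) and 4 of 7 endothelial and fibroblast markers (57.1%) were called lower, and none higher. Astrocyte marker sums at 0 h were 67181 to 77737 in RNAi neurons and 57210.3 to 72838 in control neurons, and of 10 tested 0, 0 and 1 were called higher at the 3 times and 5 in their mean. None of the excitatory or inhibitory markers with a probe set was at the floor on all 18 arrays, but Vip was on 17. Tbr1, Gad2, Pvalb and Vip did not pass the filter. The part of the cell type markers in the differences of the release genes was not tested.

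The vesicle membrane proteins and synapsins had 6 of 8 genes tested, and Syn2 was the 1 called. It made up 16.7% of the 6 with RNAi at each time, beside 14.9%, 17.1% and 17.2% of all genes. With 6 h of KCl in the control arm it was again 16.7%, beside 41.6% of all genes. Syn2 encodes synapsin II, a phosphoprotein of the vesicle surface. Its signal in RNAi neurons was 2108, 1916 and 2257 at 0 h, 2067, 1968 and 2160.2 at 1 h, and 2349.6, 2011 and 2331 at 6 h. Control neurons read 1431, 1472 and 1413 at 0 h, 1526, 1520.2 and 1562 at 1 h, and 1665, 1552 and 1771 at 6 h. At each time all 3 RNAi arrays lay above all 3 control arrays. Syn2 differed by 0.54 ± 0.07, 0.43 ± 0.07 and 0.42 ± 0.07 between RNAi and control neurons at 0, 1 and 6 h (adjusted p = 0.000154, 0.000938 and 0.00116). After 6 h of KCl it had 0.09 ± 0.07 in the RNAi arm (adjusted p = 0.356), where arrays overlapped, and rose by 0.21 ± 0.07 in the control arm (adjusted p = 0.0338), where they did not. That call in the control arm was lost without any 1 of control 0 h replicates 1, 2 and 3 and control 6 h replicates 1 and 3 (adjusted p = 0.0536 to 0.142), and with only the groups compared in the fit (0.0528).

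Synaptophysin (Syp) is an abundant membrane protein of the vesicle, and its change was 0.04 with 6 h of KCl in the RNAi arm and -0.18 in the control arm, and -0.12, 0.11 and 0.11 with RNAi at the 3 times, none called. Synapsin I (Syn1) read 2152, 2410.3 and 2858 in RNAi neurons at 1 h, against 1568, 1746 and 2530.0 in control neurons. These arrays overlapped, and the difference of 0.37 ± 0.15 had an adjusted p of 0.116 without and 0.0273 with the replicate block. Synaptogyrin 1 (Syngr1), a relative of synaptophysin, had 0.14 in the RNAi arm and 0.16 in the control arm with 6 h of KCl. The replicate block called the change in control neurons (adjusted p = 0.0475, against 0.0624 without it). Over the 5 genes not called with RNAi, Syn1, Syp, Syngr1, Sv2a and Sv2b, differences ranged from -0.24 to 0.37, and their 95% intervals reached from -0.53 to 0.69.

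Both transporters that load glutamate into vesicles lay lower with RNAi, and 1 of them, Slc17a6 (VGLUT2), rose with 6 h of KCl in both arms. In RNAi neurons its signal was 865, 882 and 1319.7 at 0 h, 879, 1014 and 1264 at 1 h, and 1357, 1493 and 1729 at 6 h. In control arrays it stood at 1199, 1408 and 1563 at 0 h, 1276, 1419.8 and 1609 at 1 h, and 2009.7, 1912 and 1964 at 6 h. All 6 h arrays lay above all 0 h arrays of their arm. The rise was 0.60 ± 0.16 in the RNAi arm (adjusted p = 0.00738) and 0.51 ± 0.16 in the control arm (adjusted p = 0.0195). In the control arm the call was lost without control 0 h replicate 1 (adjusted p = 0.0855) or control 6 h replicate 1 (0.0517). With RNAi, Slc17a6 had -0.46, -0.46 and -0.37 at the 3 times, not called at any 1 of them (adjusted p = 0.0666, 0.0652 and 0.138). The replicate block called all 3 (adjusted p = 0.00194, 0.00196 and 0.00826), and the mean of the 3 times fell by 0.43 ± 0.09 (adjusted p = 0.00176).

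Slc17a7 (VGLUT1), the main transporter of hippocampal excitatory neurons, read 901, 1039 and 1062 at 0 h, 835, 1017 and 1191 at 1 h, and 726, 763 and 980.5 at 6 h in RNAi neurons. Control neurons read 1363, 1655 and 1624 at 0 h, 1780.2, 1009 and 1569 at 1 h, and 1342, 1238 and 1355 at 6 h for it. RNAi arrays lay below all control arrays at 0 h and 6 h and overlapped them at 1 h, where control replicate 2 was low. Slc17a7 was lower, with a difference of -0.63 ± 0.18 at 0 h and -0.68 ± 0.18 at 6 h (adjusted p = 0.0265 and 0.0152). At 1 h it had -0.49 ± 0.18 (adjusted p = 0.0717, and 0.027 with the replicate block). The call at 0 h was lost without any 1 of RNAi 0 h replicates 1 and 2 and control 0 h replicates 2 and 3 (adjusted p = 0.0534 to 0.093) and without the filter (0.0561), and that at 6 h without RNAi 6 h replicate 1 (0.0706). With 6 h of KCl it had -0.29 in the RNAi arm and -0.23 in the control arm, neither called.

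Of the 10 synaptotagmins 6 were tested, and with 6 h of KCl 1 rose and 1 fell in each arm. That was 33.3% in each, beside 40% of all genes in the RNAi arm and 41.6% in the control arm. Syt4, a synaptotagmin of dense-core vesicles that responds to neuronal activity, read 5546, 6539.7 and 6773 at 0 h, 6356, 7024 and 7282 at 1 h, and 7846, 8148 and 8570.3 at 6 h in RNAi neurons. Its signal in control neurons was 5544, 5878 and 6061 at 0 h, 6722, 6805 and 6724 at 1 h, and 7731, 7575 and 8208 at 6 h. All 6 h arrays lay above the 0 h arrays of their arm, and in the control arm the 1 h arrays did too. Syt4 rose by 0.39 ± 0.07 in the RNAi arm and 0.43 ± 0.07 in the control arm (adjusted p = 0.000611 and 0.000233). At 1 h it had 0.13 ± 0.07 in the RNAi arm (adjusted p = 0.418) and 0.21 ± 0.07 in the control arm (adjusted p = 0.197, and 0.0385 with the replicate block).

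Syt3 encodes a synaptotagmin with a high affinity for calcium, and it fell with KCl. It read 991, 1096 and 969 at 0 h, 897, 1052 and 1119 at 1 h, and 657, 818 and 788 at 6 h in RNAi neurons. In control neurons it read 955, 1334 and 1186 at 0 h, 887, 1038 and 1112 at 1 h, and 877, 861 and 842 at 6 h. The 6 h arrays lay below the 0 h arrays in both arms, and the control 0 h arrays were widely spread. Syt3 fell by 0.44 ± 0.12 in the RNAi arm and 0.42 ± 0.12 in the control arm (adjusted p = 0.00882 and 0.0115). Without control 0 h replicate 2 the change in the control arm was -0.31 (adjusted p = 0.0701), and with the mean of all probe sets -0.29 (0.0652).

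With RNAi no synaptotagmin was called at any 1 time, beside 14.9%, 17.1% and 17.2% of all genes. Syt5, a calcium-binding synaptotagmin, read 1681, 1974 and 1951 at 0 h, 1606, 1949 and 2234 at 1 h, and 1696, 1906 and 2156 at 6 h in RNAi neurons. Its control signal was 2327, 2429.8 and 2684 at 0 h, 2108, 1715 and 2506 at 1 h, and 2153, 2245 and 2528 at 6 h. RNAi arrays lay below control arrays at 0 h and overlapped them at 1 h and 6 h. Syt5 had -0.41, -0.12 and -0.27 (adjusted p = 0.0588, 0.609 and 0.213), and was called lower in the mean of the 3 times, at -0.27 ± 0.08 (adjusted p = 0.0146). The replicate block called it at 0 h and 6 h (adjusted p = 0.00347 and 0.0361). Syt1, the sensor of fast synchronous release, had -0.09, -0.03 and -0.11 with RNAi. After 6 h of KCl it had 0.15 in the RNAi arm and 0.17 in the control arm. Syt7, a slower sensor of asynchronous release, and Syt11, which does not bind calcium, stayed within -0.05 to 0.13 in all 5 of these comparisons. None of these values of Syt1, Syt7 and Syt11 was called.

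Among the SNARE proteins the synaptobrevin gene Vamp1 was higher with KCl and with RNAi. RNAi neurons read 546, 546 and 502 at 0 h, 522, 526 and 512 at 1 h, and 796, 894 and 709 at 6 h for Vamp1. Control neurons read 358, 350.5 and 344 at 0 h, 327, 376 and 364 at 1 h, and 534, 552 and 489.9 at 6 h. At each time the RNAi arrays lay above the control arrays, and in each arm the 6 h arrays lay above the 0 h arrays. The rise with 6 h of KCl was 0.58 ± 0.08 in the RNAi arm and 0.58 ± 0.08 in the control arm (adjusted p = 2.31e-05 and 2.2e-05), and the difference between the arms' rises was 0.00 (95% interval -0.23 to 0.24). RNAi minus control was 0.60 ± 0.08, 0.55 ± 0.08 and 0.60 ± 0.08 at 0, 1 and 6 h (adjusted p = 9.69e-05, 0.000188 and 0.000109). Its paralogue Vamp2, the main synaptobrevin of forebrain synapses, had 0.10 in the RNAi arm and 0.11 in the control arm with KCl and 0.05, 0.21 and 0.04 with RNAi, none called. With the replicate block Vamp2 was called at 1 h (adjusted p = 0.0303) and in the mean of the 3 times (0.10, adjusted p = 0.0432).

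Stx1a encodes syntaxin 1A, the SNARE of the presynaptic membrane. It read 1185, 1897 and 1658 at 0 h, 1144, 1611 and 1852 at 1 h, and 901, 1344 and 1453 at 6 h in RNAi neurons. Its signal in control neurons was 2209, 3007 and 2616 at 0 h, 1918, 2041 and 2674 at 1 h, and 1988, 2007 and 2298 at 6 h. RNAi arrays lay below control arrays at each time, with RNAi replicate 1 the lowest throughout. Stx1a was lower, with a difference of -0.74 ± 0.21 at 0 h and -0.79 ± 0.21 at 6 h (adjusted p = 0.0288 and 0.0181), and had -0.54 ± 0.21 at 1 h (adjusted p = 0.102, and 0.0034 with the replicate block). The 0 h call was lost without any 1 of RNAi 0 h replicates 1 and 3 and control 0 h replicates 2 and 3 (adjusted p = 0.0559 to 0.118), without the filter (0.0624) and with the mean of all probe sets (0.0502). The 6 h call was lost without RNAi 6 h replicate 1 or control 6 h replicate 3 (0.0682 to 0.10). With 6 h of KCl it had -0.36 in the RNAi arm and -0.31 in the control arm, called with the replicate block alone (adjusted p = 0.0203 and 0.0436).

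Snap25, the SNARE held at the presynaptic membrane by lipid anchors, read 11498, 11526 and 12309 at 0 h, 10899, 11679 and 12437 at 1 h, and 11139.6, 11885 and 12473 at 6 h in RNAi neurons. Control arrays gave 10109, 10878 and 10817 at 0 h, 10717, 10468 and 10399 at 1 h, and 10271, 10729 and 10864 at 6 h. RNAi arrays lay above control arrays at each time by small margins. Snap25 had 0.15, 0.15 and 0.15 (adjusted p = 0.11, 0.117 and 0.0962, and 0.0383, 0.0417 and 0.0329 with the replicate block), and its mean over the 3 times was called, at 0.15 ± 0.04 (adjusted p = 0.00289). With KCl it had 0.01 in the RNAi arm and 0.00 in the control arm (95% intervals -0.12 to 0.14 and -0.13 to 0.13).

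Of the 7 priming factors and SNARE regulators 5 were tested. Cplx1, complexin 1, clamps and then promotes the assembled SNARE complex. It read 6446, 6249.9 and 6476 at 0 h, 6395, 6473 and 6444 at 1 h, and 6101, 5869 and 5606 at 6 h in RNAi neurons. Its control signal was 4174, 4572 and 4731 at 0 h, 4237, 3862 and 4569.8 at 1 h, and 3789.7, 3358 and 3910.3 at 6 h. At each time the RNAi arrays lay well above the control arrays. Cplx1 was higher by 0.51 ± 0.07, 0.61 ± 0.07 and 0.67 ± 0.07 (adjusted p = 0.000192, 3.92e-05 and 2.02e-05). After 6 h of KCl it had -0.13 ± 0.07 in the RNAi arm (adjusted p = 0.179) and fell by 0.29 ± 0.07 in the control arm (adjusted p = 0.00425). The difference between the arms' responses, 0.16, was not called (95% interval -0.06 to 0.38).

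Its paralogue Cplx2 was called in no comparison. It read 425, 313 and 371 at 0 h, 246, 288 and 354 at 1 h, and 238, 205 and 290.0 at 6 h in RNAi neurons. Control neurons read 279, 357 and 407 at 0 h, 574, 259 and 398 at 1 h, and 397, 272 and 358 at 6 h for Cplx2. All RNAi 6 h arrays lay below the RNAi 0 h arrays, while control arrays overlapped. With 6 h of KCl Cplx2 had -0.60 ± 0.24 in the RNAi arm (adjusted p = 0.0604, and 0.0206 with the replicate block) and -0.02 ± 0.24 in the control arm (adjusted p = 0.957).

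Stxbp5, tomosyn, binds syntaxin and holds back SNARE assembly. In RNAi neurons its signal was 655, 702 and 637 at 0 h, 667, 744 and 687 at 1 h, and 694, 894 and 818 at 6 h. Control neurons read 859, 839 and 776 at 0 h, 976, 922 and 848 at 1 h, and 1083, 1160.2 and 1159 at 6 h for Stxbp5. RNAi arrays lay below control arrays at each time. After 6 h of KCl the arrays separated from those at 0 h in the control arm and overlapped in the RNAi arm. Stxbp5 rose by 0.26 ± 0.09 in the RNAi arm and 0.46 ± 0.09 in the control arm (adjusted p = 0.0209 and 0.000397). RNAi minus control was -0.31 ± 0.09, -0.39 ± 0.09 and -0.51 ± 0.09 (adjusted p = 0.0217, 0.00516 and 0.00086). The KCl call in the RNAi arm was lost without any 1 of RNAi 0 h replicates 1 and 3 and RNAi 6 h replicates 2 and 3 (adjusted p = 0.0511 to 0.118) and with only the groups compared (0.0818). The RNAi call at 0 h was lost without any 1 of RNAi 0 h replicates 1 and 3 and control 0 h replicates 1 and 2 (0.0563 to 0.0818).

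Nsf encodes the ATPase that takes SNARE complexes apart, and Napb its adaptor beta-SNAP. Nsf read 3193, 3701 and 4262 at 0 h, 3408, 3732 and 4099 at 1 h, and 3305, 3482 and 3693 at 6 h in RNAi neurons. Its signal in control neurons was 5029.5, 4929.9 and 4718 at 0 h, 5221, 4264 and 5143 at 1 h, and 4655, 4532 and 4476 at 6 h. Each RNAi array lay below every control array of its time, by a small margin at 1 h, where the highest RNAi array read 4099 and control replicate 2 read 4264. Nsf was lower, with a difference of -0.41 ± 0.10, -0.38 ± 0.10 and -0.38 ± 0.10 (adjusted p = 0.012, 0.0155 and 0.015). Its calls were lost without RNAi replicate 1 of the time tested (adjusted p = 0.0543, 0.0801 and 0.0654), at 1 h also without control replicate 1 or 3 (0.070 and 0.0563), at 0 and 1 h with only the groups compared (0.059 and 0.0577), and at 6 h with the mean of all probe sets (0.0889). With KCl it had -0.08 in the RNAi arm and -0.10 in the control arm at 6 h, neither called.

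Napb read 2269, 2669 and 3021 at 0 h, 2249, 2625 and 2799 at 1 h, and 2352, 2337 and 2595 at 6 h in RNAi neurons. In control arrays it stood at 2198, 2343 and 2359 at 0 h, 2281, 2077 and 2327 at 1 h, and 1735, 1989.8 and 1920.1 at 6 h. At 6 h the RNAi arrays lay above the control arrays, and the control 6 h arrays lay below those at 0 h. Napb differed by 0.20, 0.19 and 0.37 ± 0.10 with RNAi, called at 6 h (adjusted p = 0.0185). With 6 h of KCl it had -0.12 ± 0.10 in the RNAi arm and fell by 0.29 ± 0.10 in the control arm (adjusted p = 0.37 and 0.028). The fall in control neurons was not called without control 6 h replicate 1 or control 0 h replicates 2 or 3 (adjusted p = 0.0759 to 0.114), nor the RNAi difference at 6 h without control 6 h replicate 1 or RNAi 6 h replicate 3 (0.073 to 0.0767).

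Rab3 proteins are vesicle GTPases that recruit effectors at the active zone, and Rab3c had the largest KCl response of the 33 genes. It read 251, 261 and 229 at 0 h, 237, 244 and 250.5 at 1 h, and 382, 403 and 409 at 6 h in RNAi neurons. Control neurons read 245, 301 and 251 at 0 h, 244, 296 and 265 at 1 h, and 466, 589.5 and 611 at 6 h for Rab3c. In each arm all 6 h arrays lay above all others, and the RNAi 6 h arrays lay below the control 6 h arrays. Rab3c rose by 0.69 ± 0.10 in the RNAi arm, 1.61-fold, and by 1.06 ± 0.10 in the control arm, 2.09-fold (adjusted p = 6.25e-05 and 8.17e-07). RNAi minus control was -0.10, -0.14 and -0.47 ± 0.10, called at 6 h (adjusted p = 0.00521). The arms' responses differed by -0.37 (95% interval -0.68 to -0.06), with an adjusted p of 0.476, and of 0.142 to 0.792 over 22 alternatives.

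**Figure D3:**
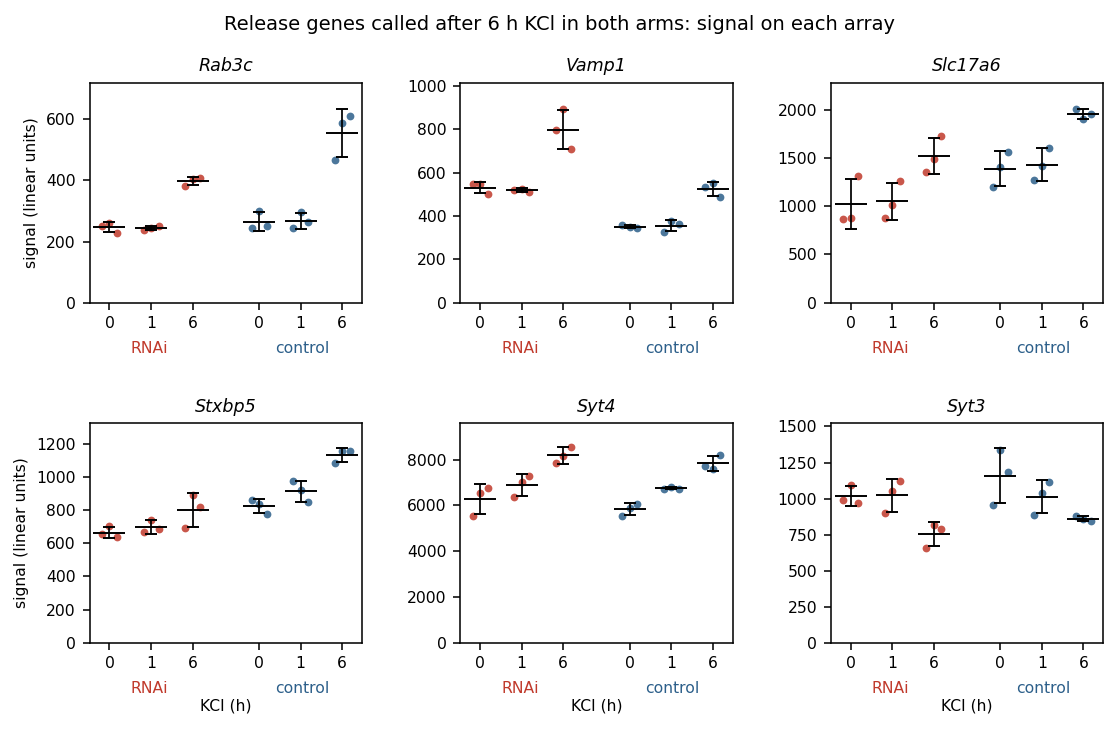
Signal (linear units) on each array for 6 of the 7 release genes called after 6 h of KCl in both arms, by hours of KCl, with RNAi neurons in red and control neurons in blue, and bars for mean ± SD (n = 3). The 6 h arrays lie above the 0 h arrays for Rab3c, Vamp1, Slc17a6 and Syt4 and below them for Syt3 in each arm, while Stxbp5 overlaps in RNAi neurons at 694 against 702.

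Rab3a, the most studied Rab3 of synaptic vesicles, had -0.12 in the RNAi arm and -0.13 in the control arm with KCl and -0.04, -0.02 and -0.03 with RNAi, none called (95% intervals within -0.31 to 0.17). Rab3b, its paralogue, read 444, 454 and 555 at 0 h, 442, 429.7 and 541 at 1 h, and 432, 428 and 535 at 6 h in RNAi neurons. Its control signal was 493, 558 and 614 at 0 h, 540.4, 504 and 614 at 1 h, and 539, 507 and 548 at 6 h. The groups overlapped at each time, and RNAi replicate 3 was the highest of its group. Rab3b had -0.20, -0.23 and -0.20, called with the replicate block alone (adjusted p = 0.0336, 0.013 and 0.0304), and its mean over the 3 times was -0.21 ± 0.07 (adjusted p = 0.024). The mean was not called without any 1 of RNAi 1 h replicate 2, control 0 h replicate 3 and control 1 h replicate 3 (0.0515 to 0.0521).

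Rims1 encodes RIM1, a Rab3 effector that primes vesicles. It read 153, 159 and 176 at 0 h, 161, 192 and 194 at 1 h, and 169, 180.0 and 165 at 6 h in RNAi neurons. Its signal in control neurons was 166, 219 and 238 at 0 h, 231, 192 and 215 at 1 h, and 208, 210.3 and 186 at 6 h. The groups overlapped at 0 h and 1 h and separated at 6 h. Rims1 had -0.34, -0.22 and -0.23 (adjusted p = 0.0602, 0.218 and 0.20, with 0.0311 at 0 h under the replicate block), and was lower in the mean of the 3 times by -0.26 ± 0.07 (adjusted p = 0.00519).

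The active zone scaffolds Bsn (bassoon) and Pclo (piccolo) were called in no comparison. Bsn had -0.16 in the RNAi arm and -0.14 in the control arm with 6 h of KCl and -0.14, -0.07 and -0.17 with RNAi. The mean of the 3 times was -0.13 (adjusted p = 0.0709, and 0.0162 with the replicate block). Pclo, close to the filter, had values of -0.18 and 0.10 with KCl in the RNAi and control arms and 0.16, 0.12 and -0.12 with RNAi.

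All 4 genes of endocytosis were tested. Snap91 encodes AP180, the adaptor that sets the size of clathrin-coated vesicles at synapses, and it was lower with KCl and with RNAi. It read 6781, 7025 and 7079.8 at 0 h, 6059, 6705 and 6769 at 1 h, and 5204, 5864 and 5545 at 6 h in RNAi neurons. Control neurons read 8379.7, 8319 and 8119 at 0 h, 8379.7, 8307 and 7948 at 1 h, and 7352, 7431 and 7374 at 6 h for Snap91. RNAi arrays lay below control arrays at each time, and in each arm the 6 h arrays lay below the 0 h arrays. Snap91 differed by -0.25 ± 0.06, -0.34 ± 0.06 and -0.42 ± 0.06 with RNAi (adjusted p = 0.00714, 0.00072 and 0.000151). After 6 h of KCl it fell by 0.33 ± 0.06 in the RNAi arm and 0.16 ± 0.06 in the control arm (adjusted p = 0.000205 and 0.0287). In the control arm the call was lost without any 1 of control 0 h replicates 1 and 2 and control 6 h replicates 1, 2 and 3 (adjusted p = 0.0586 to 0.0739), with only the groups compared (0.0535) and with the mean of all probe sets (0.124). The RNAi call at 0 h was lost with only the groups compared (0.0515) and with the mean of all probe sets (0.0529). Its second set was at the floor on all 18 arrays, so by construction that mean shrinks each change of Snap91 by a factor of 2.

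Synj1, synaptojanin 1, is the lipid phosphatase that strips the clathrin coat. It read 4659, 5207 and 5426 at 0 h, 4552, 5178 and 5398 at 1 h, and 3928, 4753 and 4861 at 6 h in RNAi neurons. Control arrays gave 4713, 5833 and 5882 at 0 h, 6678, 5195 and 6013 at 1 h, and 5429, 5324 and 5507 at 6 h. The groups overlapped at 0 h and 1 h and separated at 6 h. Synj1 had -0.10, -0.24 and -0.27 (with 0.0476 as the adjusted p at 6 h under the replicate block and 0.111 without it), and a mean of -0.20 ± 0.06 (adjusted p = 0.0202). Dnm1, the dynamin that pinches vesicles off, and Amph, which brings it to the coat, stayed between -0.09 and 0.09 with KCl at 6 h and with RNAi, none called.

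**Figure D4:**
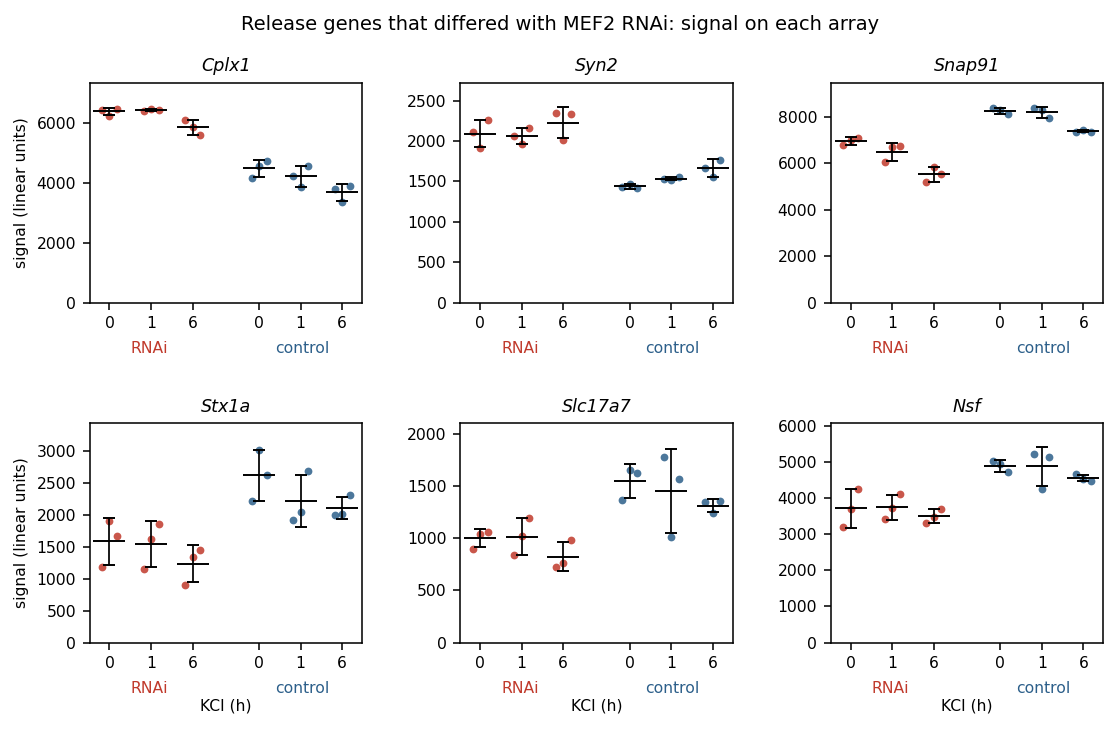
Signal (linear units) on each array for 6 release genes that differed between the arms, by hours of KCl, with RNAi neurons in red and control neurons in blue, and bars for mean ± SD (n = 3). Cplx1 and Syn2 lie higher in RNAi arrays at every time, Snap91, Stx1a and Nsf lie lower, and Slc17a7 overlaps at 1 h alone, where 1 control array reads 1009.

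No release gene was called in the interaction of RNAi with KCl (RNAi-arm response less control-arm response) at 1 h or at 6 h. Over all genes 0% were called at 1 h and 0.119% at 6 h by limma. At an unadjusted p under 0.05 there was 1 release gene at 1 h, Syn1 at 0.51 (adjusted p = 1), and 2 at 6 h, Rab3c and Sv2b. Over all 10934 genes there were 363 at 1 h and 901 at 6 h under that cutoff. The count of release genes called was 0 under all 22 alternatives run at each time. For the 3 genes called with KCl in the control arm and not in the RNAi arm, the interaction was -0.12 for Syn2, 0.16 for Cplx1 and 0.17 for Napb, with 95% intervals of -0.34 to 0.11, -0.06 to 0.38 and -0.13 to 0.47. The interval for Cplx2, -1.31 to 0.15 around -0.58, was the widest of those named.

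Of the 43 genes, 18 had several probe sets, 42 in all, of which 35 passed the filter and were fitted among 14735 probe sets. For 4 genes a further set had a change unlike that of the brightest. For Sv2b, a glycoprotein of the vesicle membrane, the brightest set read 6228, 6811 and 5427 at 0 h, 5772, 5739.8 and 5607 at 1 h, and 4262, 6923 and 5309.9 at 6 h in RNAi neurons. It read 5521, 5052 and 5783 at 0 h, 7548, 6706 and 5846 at 1 h, and 6413, 6267 and 6432 at 6 h in control neurons. A second set read 618, 717 and 1158 at 0 h, 584, 643 and 925 at 1 h, and 557, 514 and 822 at 6 h in RNAi neurons. In control neurons that second Sv2b set read 988, 1149 and 1369 at 0 h, 1112, 857 and 1281 at 1 h, and 616, 648 and 656 at 6 h. The brightest set had -0.19 in the RNAi arm and 0.23 in the control arm with 6 h of KCl, neither called, and the second had -0.37 (adjusted p = 0.232) in the RNAi arm and fell by 0.86 in the control arm (adjusted p = 0.00844). All control 6 h arrays of the second set lay below all its control 0 h arrays.

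For Stxbp5, a second set read 397, 537 and 527 at 0 h, 422, 549 and 544 at 1 h, and 313, 452 and 411 at 6 h in RNAi neurons. In control neurons this second Stxbp5 set read 592, 699.8 and 642 at 0 h, 776, 710.3 and 722 at 1 h, and 512, 611 and 525 at 6 h. With 6 h of KCl it had -0.32 in the RNAi arm and -0.23 in the control arm, not called (adjusted p = 0.0967 and 0.229), where the brightest set rose. Its remaining set, too dim to pass the filter, read 108, 118 and 121 at 6 h and 80, 96.7 and 105 at 0 h in RNAi neurons, and 130.0, 148 and 148 at 6 h and 103, 103 and 104 at 0 h in control neurons. All 6 h arrays of this dim set lay above all its 0 h arrays in each arm, as with the brightest set in control neurons. With RNAi the second set had -0.41, -0.55 and -0.50, in the same direction as the brightest set (adjusted p = 0.0718, 0.0159 and 0.0288). With the mean of its 3 sets, Stxbp5 was not called with KCl in the RNAi arm (0.516) or the control arm (0.0696), nor with RNAi at 0 h (0.0559).

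A second set of Syn2 had 0.02 with 6 h of KCl in the RNAi arm and fell by 0.33 in the control arm (adjusted p = 0.837 and 0.00279), opposite to the rise of the brightest set there. Its control arrays read 837, 785 and 808 at 6 h and 961, 1092 and 1015 at 0 h, which did not overlap. With RNAi that set had -0.04, 0.09 and 0.32, called at 6 h (adjusted p = 0.0121). The remaining Syn2 set had 0.33, 0.34 and 0.42 with RNAi, in the direction of the brightest and not called (adjusted p = 0.204, 0.191 and 0.0991), and -0.02 in the RNAi arm and -0.10 in the control arm with 6 h of KCl. With the mean of its 3 sets, Syn2 had -0.08 with KCl in the control arm (adjusted p = 0.539) and 0.28, 0.28 and 0.39 with RNAi at the 3 times, still called.

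Vamp1 had 2 further sets. After 6 h of KCl they had 0.24 and 0.08 in the RNAi arm and 0.07 and 0.03 in the control arm, of which the first was called (adjusted p = 0.0269). With RNAi they ranged from 0.00 to 0.23, with no call at any 1 time. With the mean of its 3 sets, Vamp1 had 0.30 in the RNAi arm and 0.23 in the control arm with KCl and 0.22, 0.24 and 0.29 with RNAi, all called. The second set of Syt4 rose like the brightest, by 0.76 in the RNAi arm and 0.96 in the control arm, and the mean of both sets rose by 0.69 in the control arm. The further sets of Slc17a7, Stx1a and Nsf lay lower with RNAi at each time, at -0.66 to -0.31, and that of Cplx1 higher, at 0.22, 0.54 and 0.47, in the same direction as their brightest sets. Whether the sets of a gene differ was not tested.

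**Figure D5:**
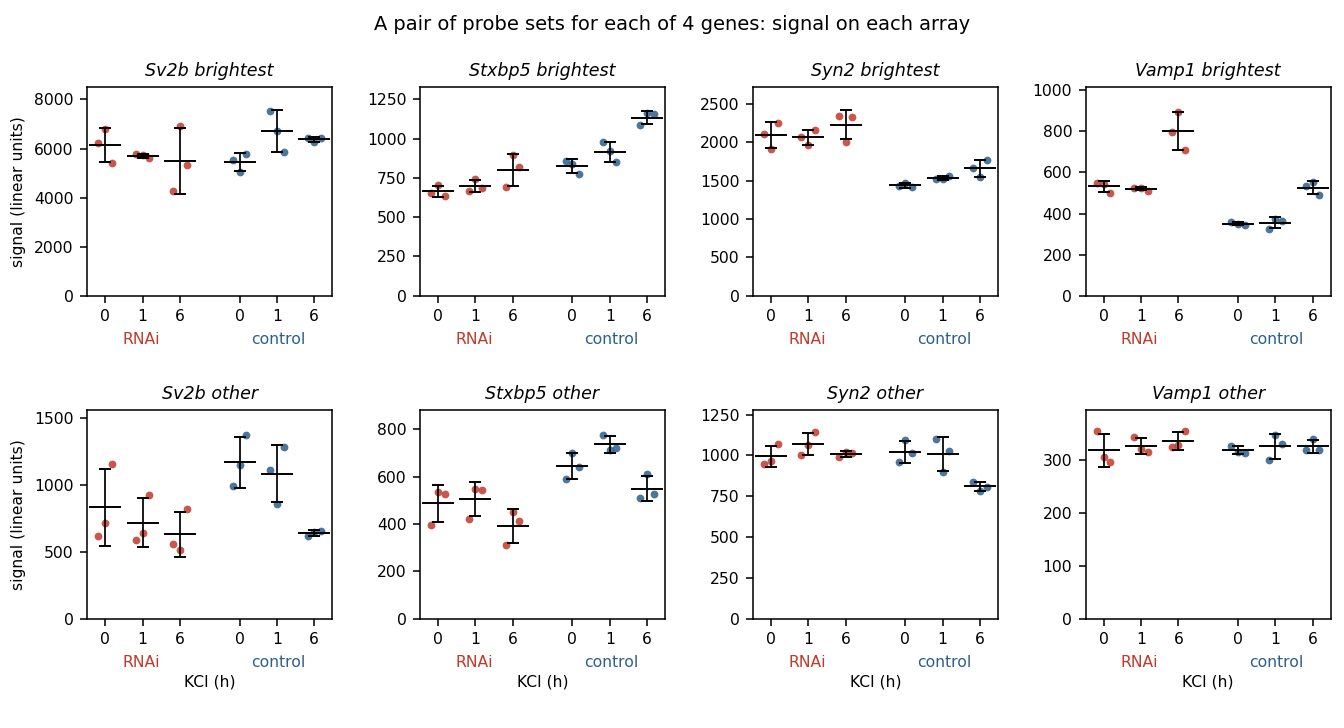
Signal (linear units) on each array for the brightest probe set (top) and another (bottom) of Sv2b, Stxbp5, Syn2 and Vamp1, by hours of KCl, with RNAi neurons in red and control neurons in blue, and bars for mean ± SD (n = 3). In control neurons the brightest set of Stxbp5 reads 1083 or more at 6 h and 859 or less at 0 h. Its other set overlaps there, at 512 to 611 at 6 h and 592 to 699.8 at 0 h, and its change was not called. The remaining sets of these genes are not shown.

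A wider list of known genes of vesicle docking, fusion and recycling, without the 44 genes, had 131 genes, of which 95 were tested. After 1 h of KCl none was called in either arm, beside 3.88% of all genes in the RNAi arm and 2.7% in the control arm. After 6 h, 19 were higher and 18 lower in the RNAi arm (38.9%) and 19 higher and 13 lower in the control arm (33.7%), beside 40% and 41.6% of all genes, with medians of 0.01 in both arms. Lin7a, a scaffold of the presynaptic and postsynaptic membrane, rose by 0.60 in the RNAi arm and 1.25 in the control arm (adjusted p = 5.6e-06 and 4.49e-09). Its interaction of -0.65 was the only call of the list (adjusted p = 0.0249). Eps15, an endocytic adaptor, rose by 0.52 and 0.87, and Itsn1, an endocytic scaffold, by 0.79 and 0.61 in the RNAi and control arms. Syt17 fell by 0.66 in the RNAi arm and 1.08 in the control arm, and Vamp7, a SNARE of endosomes, by 0.64 and 0.99. Rab3d, a paralogue of Rab3c best known from secretory cells, fell by 0.76 and 0.67.

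With RNAi the wider list had 10 higher and 9 lower of 95 at 0 h (20%), 12 and 15 at 1 h (28.4%) and 8 and 11 at 6 h (20%), beside 14.9%, 17.1% and 17.2% of all genes. In the mean of the 3 times it had 19 higher and 28 lower (49.5%), beside 37.6% of all genes and 48.5% of the 33 release genes. Pacsin2, which links dynamin to actin, was higher by 0.88, 0.62 and 0.61 at the 3 times. Rab3d was lower, with a difference of -0.71, -0.68 and -0.80, all called. Syt16 had -0.45 at 0 h (adjusted p = 0.104) and was lower, with a difference of -0.88 and -0.80 at 1 and 6 h. Synpr, synaptoporin, a relative of synaptophysin, had -0.38 at 0 h (adjusted p = 0.188) and was lower, with a difference of -0.69 and -0.67. Lin7a had -0.11 and -0.19 at 0 and 1 h, not called, and was lower, with a difference of -0.77 at 6 h (adjusted p = 5.21e-06).

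The vesicle's proton pump, whose gradient drives transmitter uptake, had 18 subunit genes, all tested. At 6 h of KCl 5 were higher and 1 lower in the RNAi arm and 4 higher and 2 lower in the control arm, 33.3% in each, beside 40% and 41.6% of all genes. Atp6v1c1, a subunit of its cytosolic part, rose by 0.63 and 0.43 in the RNAi and control arms. With RNAi 1 was higher and 1 lower at 0 h and at 1 h (11.1% each) and 4 were higher and 1 lower at 6 h (27.8%), beside 14.9%, 17.1% and 17.2% of all genes. In the mean of the 3 times 7 pump genes were higher and 3 lower (55.6%), beside 37.6% of all genes.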

How the data were processed

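RNA was hybridised to 18 rat Affymetrix arrays, per the labels' protocols. The values used are those of the deposited series matrix, a linear intensity per probe set as made by the authors. The software and the normalization behind it are not given in the sources used here. Of 31099 probe sets, 20832 had 1 gene symbol in the platform annotation, 436 had several and 9831 were not listed. From the deposited intensities, log2 values were computed after raising those under the floor, and 1 mean per group was fitted with lmFit and eBayes of limma 3.58.1 (R 4.3.3) to all 18 arrays, with 12 residual degrees of freedom. The 10 comparisons were drawn from that fit: 1 h and 6 h of KCl by arm, RNAi against control by time and as the mean of all 3, and the interactions. Each had its p-values adjusted over 10934 genes. The limma fit was first tested on simulated data. Those arrays were drawn independently, so the test did not cover the correlation by replicate number described below. The number of arrays limits the precision.

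Signals on each array are given for the release genes called in any comparison and for those with a discordant probe set, and other release genes are given by range. Genes of the wider list are named where they were among the 4 largest called changes of a comparison. Cplx2 was added after its values were seen. The release genes and the lists were chosen with earlier results of these data known.

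The 6 groups share replicate numbers 1 to 3. Deviations from the group means correlated at 0.168 to 0.741 in all 45 pairs of arrays with the same number, and at -0.625 to 0.425 in 90 pairs with different numbers. The numbers were therefore taken to pair the arrays in the fit with the replicate block, while the main fit held no block. The pairing comes from the data, since the labels do not say what a number marks. The alternatives tried were the replicate block, arrays centred on their median, quantile normalization, a filter at the 60th percentile or none, a floor at the 40th percentile or none above 1, a prior with an intensity trend, the mean of a gene's probe sets, a fit of only the groups compared, and each array left out.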

Additional observations from a re-analysis of the deposited data

How the results depend on the processing

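Of 57 calls of a release gene in a comparison, the settings other than leaving out an array gave 569 results, of which 552 kept direction and call, 16 lost the call and 1 turned, and leaving out an array gave 534 results, of which 489 kept both and 45 lost the call. With the mean of all probe sets, the change of Syn2 with 6 h of KCl in control neurons turned to -0.078, and the uncalled interaction of Sv2b at 6 h turned to 0.023. That setting averages in the further probe sets of these genes, whose changes are given above. In the fit with the replicate block, which uses the pairing, 1 release gene was called after 1 h of KCl in control neurons. With RNAi 13 were called at 0 h and 13 at 1 h. The shares of all genes in these comparisons were 5.5%, 26% and 28.1%. The block ended no call. The mean of all probe sets gave 5 with RNAi at 0 h, beside 13.9% of all genes. The causes of these moves were not tested. With 1 array left out the counts were 6 to 8 (RNAi arm) and 6 to 9 (control arm) with 6 h of KCl, 5 to 9, 5 to 8 and 7 to 11 with RNAi at 0, 1 and 6 h, 15 to 17 in the mean of these times, and 0 to 0 for 1 h of KCl in each arm and for the interactions. Calls of Cplx1, Rab3c, Syt4 and Vamp1 with 6 h of KCl, and of Syn2, Vamp1 and Cplx1 with RNAi at each time, held under all alternatives run. With the mean of all probe sets, Vamp1 shrank to 0.22, 0.24 and 0.29 with RNAi at the 3 times and Syn2 to 0.28 at 0 h. That mean includes the brightest set, so a call that held is no reading of the further sets. Taken alone, the further sets of Vamp1 were not called with RNAi at 0, 1 or 6 h, and those of Syn2 not at 0 or 1 h. The 3 arrays a group limit what can be called, and genes near or under the floor have no measured order.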

Other observations

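The 10 release genes that the filter left out were dim. Rph3a, which encodes the Rab3 effector rabphilin, and the synaptotagmins Syt2 and Syt6 were at the floor of 72.6 on all 18 arrays, Sv2c on 16, Rims2 on 9 and Unc13a on 2. Syn3 ranged from 96.5 to 125, Syt13 from 82.0 to 98.2, Syt12 from 95 to 157 and Unc13b, a Munc13 priming factor, from 108 to 164. In the fit without the filter, over 14218 genes, Syt12 had -0.46 with 6 h of KCl in the RNAi arm and -0.28 in the control arm (adjusted p = 0.000894 and 0.0216, limma). In that fit Unc13b had 0.20 in the RNAi arm (adjusted p = 0.0517) and 0.34 in the control arm (adjusted p = 0.00302). Rims2 had -0.22 with RNAi at 1 h and -0.10 in the mean of the 3 times (adjusted p = 0.00944 and 0.0161), with 9 of its 18 signals at the floor.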
